A study of Mus musculus with 2 samples.

Results

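The 10 loci described here belong to genes that mark mouse pluripotent cells: Dppa2, Dppa3, Dppa4, Dppa5a, Tdgf1, Utf1, Lin28a, Sall4, Fbxo15 and Nr5a2. Every window of 50 kb that overlapped one of these genes, or lay within 100 kb of it on mm10, was taken from an allele-resolved ATAC-seq table. This gave 51 windows of 43941, of which 15 overlapped a gene body. All 10 genes had rows, and 0 windows of the grid were missing around them.

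The cells were F121-6, a female hybrid mouse embryonic stem cell line with 1 genome from strain 129 and 1 from CAS (castaneus), so that the same nucleus holds both alleles. Cells grew with serum and LIF on mouse embryonic fibroblasts whose division had been blocked with mitomycin C. No strain is stated for the feeder cells, and no genotype was altered in the group. There were 2 replicates, each made from 200000 cells and read as paired ends of 100 bp, and nothing says that they were separate cultures, so any p-value covers only the spread between these libraries, which may be technical.

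In ATAC-seq a transposase inserts sequencing adapters where DNA is not wrapped tightly by nucleosomes, and promoters and enhancers in use are cut most. Pluripotent cells keep such elements open around the genes that define them, many of which are bound by the factors OCT4, SOX2 and NANOG. The members have different roles. Dppa2 and Dppa4 encode partner proteins that bind DNA through SAP domains, and Dppa3 (Stella) protects the maternal genome from loss of DNA methylation in the zygote. Tdgf1 (Cripto) encodes the co-receptor of Nodal, Lin28a an RNA-binding protein that blocks maturation of let-7, and Sall4, Utf1 and Nr5a2 act on transcription. Fbxo15 encodes an F-box protein and is known as a marker used to select reprogrammed cells.

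Column totals over the whole table ran from 44026 to 59995, and single values from 0 to 18. What was counted is not given in the sources used here. In windows with 4 or more counts, the difference between the alleles had 0.335 (replicate 1) and 0.465 (replicate 2) of the variance that independent reads would give. The values were therefore read as small counts of unknown read depth, and the exact Clopper-Pearson 95% intervals below, which cover counting error only, are wide for them. A value of 0 allows up to 3 counts.

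RefSeq promoter sequences (GRCm38.p6) were at hand for 4 of the 10 genes: Lin28a, Nr5a2 with a pair of start sites, Tdgf1 and Utf1. The 250 bases before the start site are printed for Utf1, Tdgf1 and Lin28a, since the windows that hold these starts differed in their counts: 2.58% of windows held as many as that of Utf1, and 27.1% as many as those of Tdgf1 and Lin28a. They are given in the direction of transcription. The start used for Lin28a, base 134018816, lies inside the gene as annotated here, which reaches to base 134019196. Capitals mark the letters of the GC box, GGGCGG on either strand, which SP and KLF factors are known to bind. The letters TATAAA (the TATA box), the letters CCAAT and, for OCT factors, the octamer ATGCAAAT were also searched on both strands, and overlapping matches were each counted.
Utf1, chr7:139943606-139943855, plus strand: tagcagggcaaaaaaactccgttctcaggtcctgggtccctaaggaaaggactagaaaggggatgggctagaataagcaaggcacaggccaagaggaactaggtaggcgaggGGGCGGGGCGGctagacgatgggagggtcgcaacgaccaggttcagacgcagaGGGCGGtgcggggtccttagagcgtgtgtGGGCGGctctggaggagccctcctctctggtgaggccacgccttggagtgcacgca
Tdgf1, chr9:110946159-110946408, minus strand: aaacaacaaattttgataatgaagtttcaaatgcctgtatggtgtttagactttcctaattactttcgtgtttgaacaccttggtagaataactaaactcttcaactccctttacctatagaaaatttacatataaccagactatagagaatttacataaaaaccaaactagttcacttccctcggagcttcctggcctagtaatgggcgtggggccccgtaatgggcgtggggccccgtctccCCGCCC
Lin28a, chr4:134018817-134019066, minus strand: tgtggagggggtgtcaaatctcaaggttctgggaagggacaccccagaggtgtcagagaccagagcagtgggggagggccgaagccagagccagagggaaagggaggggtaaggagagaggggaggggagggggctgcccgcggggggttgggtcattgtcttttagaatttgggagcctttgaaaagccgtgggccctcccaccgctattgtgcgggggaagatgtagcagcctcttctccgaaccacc

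Utf1 held the GC box letters 4 times, Tdgf1 once at the base next to its start, and Lin28a 0 times. Among 32817 promoter stretches of the same length, 32.7% held them. Utf1 and Lin28a had nearly the same content of G and C, 61.6% and 61.2%, against a median of 52.4% over all promoters, and 14 and 7 CpG dinucleotides against a median of 6. Tdgf1 had 42% G and C with 7 CpG. The upstream start of Nr5a2 had 43.2% and 2 CpG with 1 match to the TATA letters, and its inner start 49.6% and 6 CpG with 1 match to CCAAT. The TATA letters were found in 12.4% of all promoters, CCAAT in 33.8% and the octamer in 1.60%, and the octamer letters in 0 of the 5 member stretches. A window of 50 kb is far wider than a promoter, so the counts below cannot be placed on these sequences.

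Of the 10 loci, 5 had counts among the highest of the gene neighbourhoods of chromosomes 1 to 19. The counts are those assigned to an allele, and they were not adjusted for how many sequence differences tell the alleles apart in a window. Dppa3, Dppa2, Fbxo15, Dppa4 and Dppa5a were above the 95th percentile of 19758 coding gene loci formed by the same rule, Tdgf1, Utf1, Lin28a and Nr5a2 were between the 66.3 and 84.2 percentiles, and Sall4 stood at the 8.59 percentile. The 51 windows averaged 2.78 counts per allele in replicate 1 and 3.25 in replicate 2, against 1.03 and 1.36 over the table. Of the 51 windows, 25 (49.0%) held 10 or more counts in the 4 columns together, against 14.9% of all windows, and 11 ranked among the highest 1% of windows. Only 5 (9.80%) were at 0 in all columns, against 21.7%. These levels are a description, since the genes were picked as stem cell markers and with earlier results of the same table known.

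By locus, the mean count per window and allele was 6.35 ± 1.20 at Dppa3, 5.00 ± 0.707 at Dppa2, 4.75 ± 1.18 at Fbxo15, 3.90 ± 0.990 at Dppa4 and 3.45 ± 0.0707 at Dppa5a (SD, n = 2 replicates). It was 2.45 ± 0.212 at Tdgf1, 2.20 ± 0.141 at Utf1, 2.05 ± 0.495 at Lin28a, 1.78 ± 0.221 at Nr5a2 and 0.417 ± 0.236 at Sall4 (SD, n = 2). The median over all coding gene loci was 1.40. Of the 9 neighbouring pairs in this order, 2 had replicate values that did not overlap: Dppa5a lay above Tdgf1, and Nr5a2 above Sall4. The other neighbours overlapped or touched, so their order is not resolved by these replicates. Over the windows of the gene body alone Dppa5a had the highest mean, 9.75, ahead of Dppa3 with 9.25, Dppa2 with 8.25, Fbxo15 with 8.12, Dppa4 with 7.75 and Utf1 with 4.75.

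**Figure D1:**
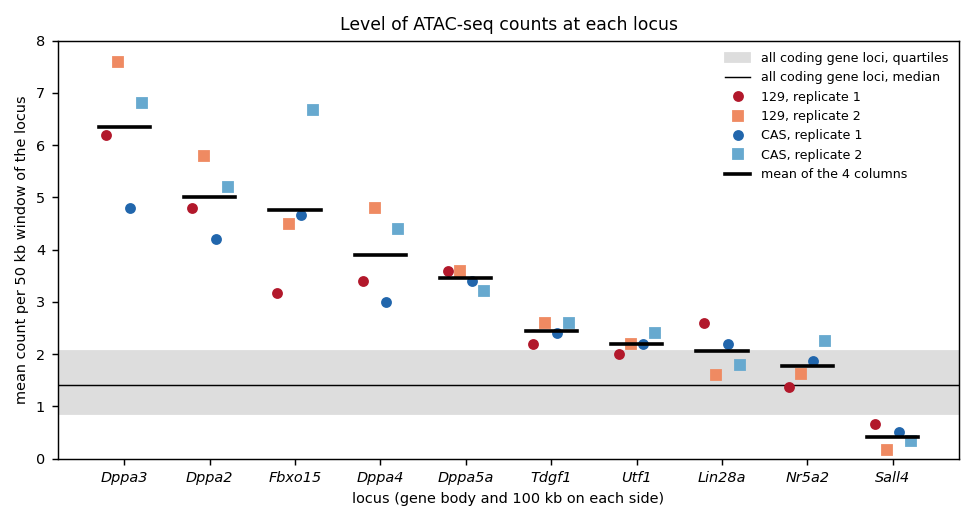
Mean ATAC-seq count per 50 kb window (vertical axis) at each of the 10 loci (gene body and 100 kb on each side), with 1 point per allele and replicate and a bar at the mean of the 4 columns. The grey band and thin line are the quartiles (0.85 to 2.05) and the median (1.40) of all coding gene loci; Sall4 is the locus below the band, with a mean of 0.417.

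The neighbouring pair Dppa4 and Dppa2 on chromosome 16, 15982 bp apart, formed a block of high counts with few other genes. The window over Dppa4 (48250001 to 48300000) held 7 counts on each allele in replicate 1; in replicate 2 it held 9 on 129 and 8 on CAS. Pairs of values below are given in this order, 129 before CAS and replicate 1 before replicate 2. The next window, over Dppa2 (48300001 to 48350000), held 7 and 5, then 12 and 9. Only 114 and 87 of the 43941 windows held as many counts as these, and in both windows the values of the alleles lay within 3 of each other. Counts fell away on the Dppa4 side, where the adjoining window (48200001 to 48250000) was at 0 in all 4 columns. Beyond it, at 48150001 to 48200000, CAS had 1 and 3 counts and 129 had 0 in both replicates. On the Dppa2 side a window without a coding gene held 3 and 2 in each replicate, and the window of Morc1, a gene of the germ line, held 7 and 7, then 5 and 7. Dppa2 and Dppa4 share 4 of their 6 windows, so the values of these loci are not independent. Loci with just 2 coding genes, as here, had a median of 1.19 counts per window over 1709 loci.

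Dppa3 on chromosome 6 lies in a cluster with Gdf3, a TGF-beta family ligand, and Nanog, a core pluripotency factor, at distances of 16337 and 77218 bp. Its locus, flanks included, had the highest level of the 10, at the 99.9 percentile of coding gene loci. The window that holds Dppa3, Gdf3 and part of Apobec1 (122600001 to 122650000) had 9 and 9, then 8 and 11. The adjoining window towards Nanog, without a coding gene, had 6 and 5, then 12 and 8, and the Nanog window (122700001 to 122750000) had 9 and 7, then 11 and 8. At most 114 windows of the table held as many counts as any of these 3. Away from Nanog the counts were lower, at 4 and 2, then 4 and 4 over Mfap5. The direction between the alleles was not shared: the Dppa3 window leaned to CAS in replicate 2 and was equal in replicate 1, while the Nanog window was higher on 129 in both.

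At Dppa5a on chromosome 9, which encodes a small KH-domain protein, most counts lay in the window of the gene, 39 of 69. The window with Dppa5a, Ooep and part of Ddx43 (78350001 to 78400000) held 10 and 9, then 12 and 8, and only 28 windows of the table had as many. Ooep encodes a protein of the oocyte, and Ddx43 an RNA helicase. Both windows before it, with Gsta2, Omt2a and Omt2b among their genes, held 0 to 1 count per column. The window after it, over Ddx43, Cgas and Mto1, held 1 and 1, then 0 and 3. A further rise, 7 and 6, then 5 and 5, lay at 78450001 to 78500000 with Eef1a1, the gene of a translation elongation factor made in nearly all cells.

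Fbxo15 on chromosome 18 had high counts across a broad stretch, with more on CAS. The window over its first part by coordinate (84900001 to 84950000, shared with Timm21) held 6 on 129 against 11 on CAS, and in replicate 2 it held 9 against 12. The next (84950001 to 85000000) held 5 and 5, then 7 and 10. The Cyb5a window had 4 and 6, then 7 and 8, and the window of Gm17266 2 and 4 in each replicate. CAS was higher in both replicates in 4 of the 6 windows, and 129 in 0.

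Among the other members, Utf1 held its highest counts at the gene and Tdgf1 did not. The Utf1 window on chromosome 7 (139900001 to 139950000, with part of Kndc1) had 4 and 4, then 6 and 5 counts, and 1135 windows of the table had as many. On one side, over Adgra1, the counts were 0 apart from a single CAS count in replicate 2, and on the other they were 3 and 4 in each replicate over Spef1l, Adam8 and Tubgcp2. The Tdgf1 window on chromosome 9 (110900001 to 110950000), which also overlaps Als2cl and Fam240a, had 1 and 2, then 2 and 2. The adjoining window, 3843 bp beyond Tdgf1 on the side of its start site, had 7 and 8, then 8 and 7, and overlaps Lrrc2 and Rtp3. It was among the 139 fullest windows of the table, while Ltf, the lactoferrin gene in the window after it, was at 0 in all columns.

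Nr5a2 on chromosome 1 spans 4 windows, and its counts rose towards its start sites. From its end to its start the windows held 0 and 2, then 0 and 1 (136800001 to 136850000); 1 and 1, then 1 and 2; 3 and 3 in each replicate; and 3 and 3, then 6 and 3 (136950001 to 137000000). The last of these holds both start sites, and the window beyond it was at 0 in all columns. Around Lin28a on chromosome 4 the counts were even, with 2 and 2, then 1 and 2 over the gene (134000001 to 134050000) and between 0 and 4 in every column of the other 4 windows, the highest over Crybg2 and Cd52.

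Sall4 on chromosome 2 was nearly empty. Its 6 windows summed to 4 and 3, then 1 and 2, and 0 to 2 in any column of a window. The window with one end of Sall4 and part of Atp9a (168700001 to 168750000) had 1 and 2 on CAS and 0 on 129, and the window with the rest of Sall4 had 1 count on 129 in replicate 1 and 0 elsewhere. With values this low no order of alleles or replicates can be read.

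In 7 of the 10 loci a window over the gene body held the highest total of the locus (at Sall4 tied), against 36.5% of all coding gene loci with ties counted alike. The exceptions were Dppa4, whose neighbour is Dppa2, Tdgf1 and Lin28a. Windows were seldom alike by their 4 counts where counts were high. The counts of the body windows of Dppa2, Dppa3, Dppa4, Dppa5a and Fbxo15 occurred once in the table, those of Utf1 in 10 windows, those of the Nr5a2 start window in 2, those of Lin28a in 186 and those of Tdgf1 in 290.

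**Figure D2:**
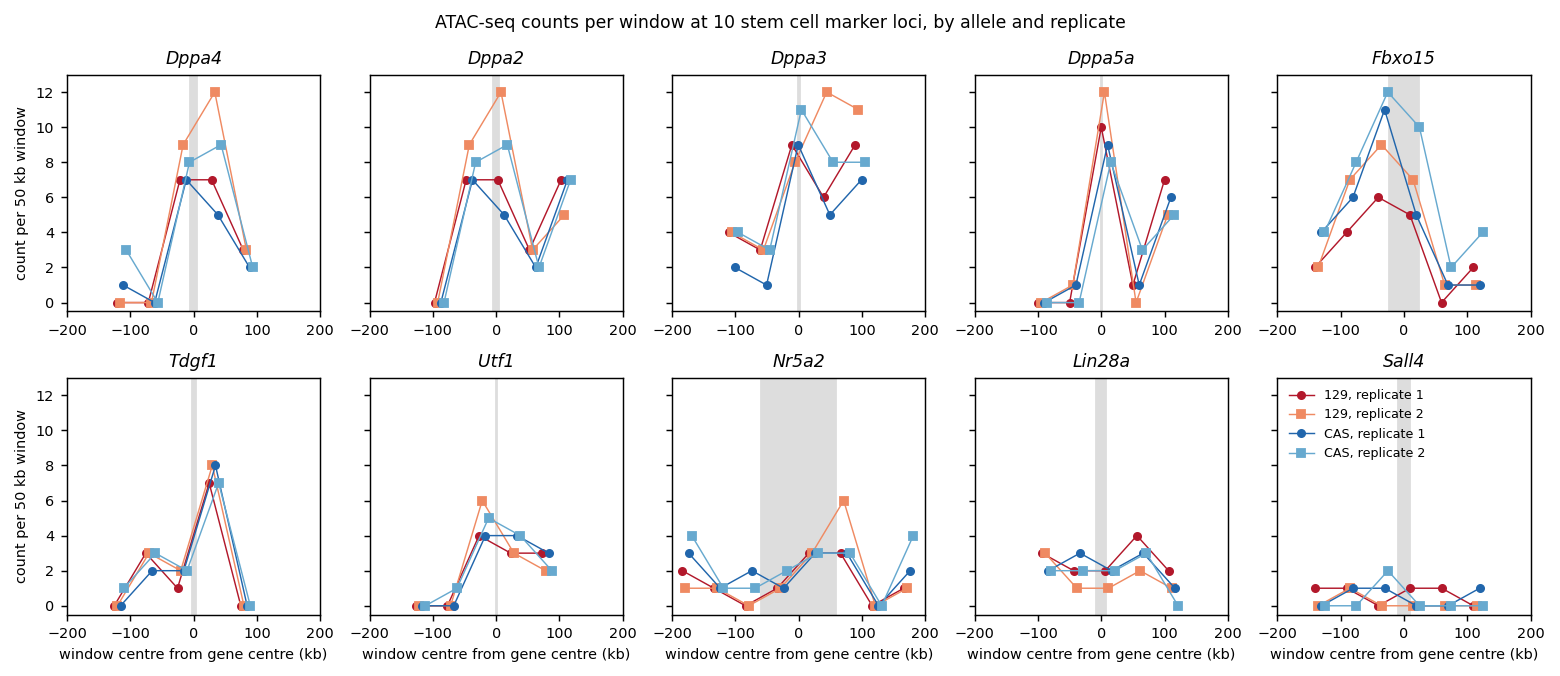
Count per 50 kb window (vertical axis) against the distance of the window centre from the gene centre in kb, for each locus, with lines for the 2 alleles and 2 replicates shifted slightly sideways so that they can be seen, and the gene body in grey (drawn at least 2 kb wide). Dppa5a shows a peak of 8 to 12 counts at the gene and another of 5 to 7 at the edge of its locus, Dppa4 and Dppa2 share a peak, Tdgf1 has its peak of 7 to 8 beside the gene, and Sall4 stays at 0 to 2.

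Between the alleles the counts were close to even. Over the 51 windows the 129 share, the part of both alleles' counts found on 129, came to 49.6% in replicate 1, with 284 counts and an interval from 43.7 to 55.6%. In replicate 2, with 331 counts, it came to 47.7% (42.2 to 53.3%). The other windows of the same chromosomes had 48.4% and 49.7%. In 31 of the 51 windows the alleles differed by at most 1 count in both replicates, the 5 windows at 0 included. No such count was made over the whole table. The median total of the 51 windows was only 8 over the 4 columns, so small differences say little about evenness. The largest difference in any was 5, in the window over the first part of Fbxo15. Over the whole table, a far larger set of 43941 windows, it was 12.

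Fbxo15 and Nr5a2 had the lowest mean 129 shares. Fbxo15 had 19 on 129 against 28 on CAS, then 27 against 40, a 129 share of 40.4% (26.4 to 55.7%) and 40.3% (28.5 to 53.0%). The rest of chromosome 18 was itself on the CAS side, at 44.6% and 44.9%. Nr5a2 had 11 and 15, then 13 and 18, a share of 42.3% (23.3 to 63.1%) and 41.9% (24.5 to 60.9%), against 47.0% and 48.9% on the rest of chromosome 1. The windows over the Nr5a2 gene alone averaged 48.2%, nearer to the chromosome.

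Dppa3 had the highest mean share. Its locus held 31 and 24, then 38 and 34, or 56.4% (42.3 to 69.7%) and 52.8% (40.7 to 64.7%). Its own window alone averaged 46.1%, below 50%, while the windows beside it held more on 129. Dppa2 (53.3% and 52.7%), Dppa4 (53.1% and 52.2%) and Dppa5a (51.4% and 52.9%) were also above 50% in both replicates. The rest of chromosome 16, for Dppa2 and Dppa4, had 49.0% and 51.5%, and that of chromosome 9, for Dppa5a, 49.5% and 52.2%. Utf1 was below 50% in both (47.6% and 47.8%), but above the rest of chromosome 7 (45.9% and 46.7%). Tdgf1 had 47.8% and 50.0%, and Lin28a changed sides, from 54.2% to 47.1%. For all 10 loci the interval included the share of the rest of the chromosome in both replicates. The intervals are wide at these counts, so this does not show that the shares are equal.

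**Figure D3:**
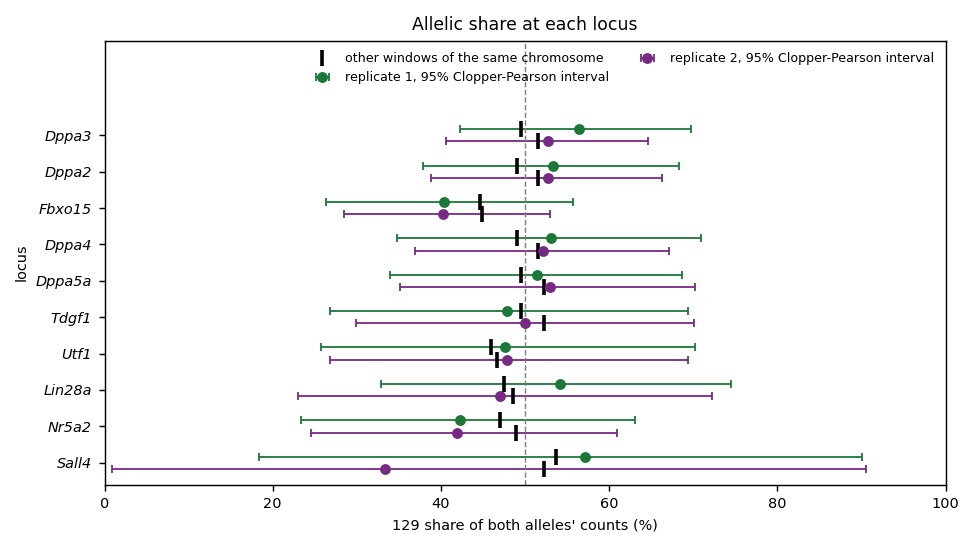
The 129 share of both alleles' counts in percent (horizontal axis) at each locus in replicate 1 and replicate 2, with Clopper-Pearson 95% intervals, and the share of the other windows of the same chromosome as a black tick. Every interval, wide at these counts, includes its tick. Fbxo15 (40.4% and 40.3%), Nr5a2 (42.3% and 41.9%) and Tdgf1 (47.8% and 50.0%) lie to the left of theirs in both replicates.

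None of the 10 loci passed edgeR's test of the allelic difference, in a main fit that did not pair the alleles by replicate. In this quasi-likelihood fit over 19363 coding gene loci, 0 of the 10 had an adjusted p under 0.05, where 0% of all loci were called, and 0 of the 10 had an unadjusted p under 0.05 (399 loci over all). Fbxo15 came nearest, with a log2 difference of -0.57 (129 over CAS; SE 0.26, edgeR adjusted p = 0.997). With the replicate as a block its unadjusted p fell under 0.05 and its edgeR adjusted p was 1.00; that fit called 3 loci over all and 0 of the 10. Nr5a2 had a log2 difference of -0.46 (SE 0.21, edgeR adjusted p = 0.997) and Dppa3 one of 0.24 (SE 0.23). The median over the 10 was 0.03, against -0.01 over all loci. Per window, edgeR called 0% of 34417 windows and 0 of the 46 member windows with a count. Of those 46, 2 had an unadjusted p under 0.05 in edgeR, where 910 of all 34417 windows did. They were the Sall4 and Nr5a2 windows with 0 on 129, which hold 3 counts each (edgeR adjusted p = 0.999). The DESeq2 Wald test called 0 loci and 0 windows. The main edgeR fit had small counts, 2 columns per allele and p kept at or above that of a Poisson test. It could therefore hardly call a locus or window here. Its smallest adjusted p was 0.997 over all loci and 0.999 over all windows. The 0 calls thus do not show that the alleles are equal.

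Directions shared by both replicates are given here for the member windows beside the table, as a description of few windows. 129 was higher in both replicates in 7 of the 46 windows (15.2%), against 11.4% of all windows with a count. CAS was higher in both in 11 (23.9%), against 12.6%, and Fbxo15 held 4 of the 11; without Fbxo15 each allele had 7 of 40 (17.5%). These windows also hold more counts than most: among the 25 with 10 or more counts, 129 was higher in both in 6 (24.0%), against 17.6%, and CAS in 5 (20%), against 19.7%. Even among these the member windows were fuller, with a median total of 19 counts against 13. The shares were not tested, and few windows lie behind each. By locus, Dppa2, Dppa3, Dppa4 and Dppa5a were higher on 129 in both replicates, 4 of 10 against 22.1% of loci with a count. Fbxo15, Nr5a2 and Utf1 were higher on CAS, 3 of 10 against 23.3%. These directions are those of the raw counts, not relative to the rest of each chromosome. Dppa2 and Dppa4 share 4 of their 6 windows, and the loci were not matched for counts in this comparison. All counts lay on CAS in both replicates in 3 of 46 windows (beside Dppa4, at Sall4 and at Nr5a2), against 3.76%, and on 129 in 0 of 46, against 3.48%. With 2 columns per allele an exact two-sided permutation test cannot give a p below 0.33, so none is given for a single locus.

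The replicates ordered the windows alike. Across the 51 windows the totals of replicate 1 and replicate 2 correlated at r = 0.936, against 0.818 over the table, as a description of windows that share libraries. Replicate 2 held more counts at 7 loci, with ratios up to 1.44 (Dppa4), and fewer at Dppa5a (35 and then 34), Lin28a (24 and then 17) and Sall4 (7 and then 3). Over the whole table replicate 2 held 1.33 times the counts of replicate 1, but summed over coding gene loci only 1.06 times, and 39.6% of those loci held fewer in replicate 2.

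Loci of other pluripotency genes were also well filled. Of 26 listed, 24 are described here, and all 24 had counts. Their loci had a median of 2.56 counts per window, from 0.438 (Otx2) to 7.55 (Nanog), against 2.95 for the 10 loci and 1.40 for all coding genes. Windows over Otx2, Fgf4 and Klf2 themselves had no row, so their values come from windows beside the gene only. Pou5f1, which encodes OCT4, had 2.2, Sox2 1.71, Esrrb 3.03 and Zfp42 5.46. Nanog and Gdf3 share windows with Dppa3. None of the 24 passed in edgeR (0 of 24 also at an unadjusted p under 0.05); 7 were higher on 129 in both replicates and 5 on CAS. Tdh, a threonine dehydrogenase gene of stem cells, had the lowest 129 share of the list (38.3% of 47 counts), and Fgf4, with 6 counts, the highest (66.7%).

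Markers of feeder fibroblasts and of differentiated lineages were lower, in loci with fewer coding genes. The median was 2.5 coding genes per locus in each of these lists, against 5 for the 10 loci and 4 for the other pluripotency genes. Across all coding gene loci, gene number and mean count correlated at r = 0.198. The lists were not matched for gene number. All 12 fibroblast markers had a count, with a median of 1.12 counts per window and a range from 0.0833 (Twist1) to 3.45 (S100a4), in a neighbourhood of 13 coding genes. Summed over both alleles and replicates they held 1 to 71 counts per locus, and the window over Postn was at 0. The 10 lineage genes had a median of 1.34, with Pax6 highest at 2.55 and Gata6 lowest at 0.2. For Foxa2 and Hand1 only windows beside the gene had rows. Feeder cells were present in the culture, and their part in the counts at the 10 loci was not tested. Fewer cells of a type and fewer open sites per cell cannot be told apart in bulk counts.

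**Figure D4:**
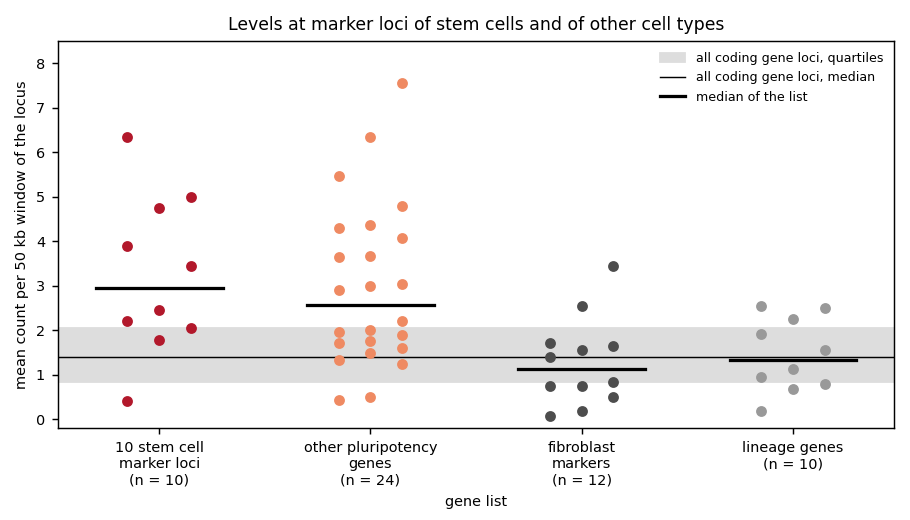
Mean count per 50 kb window (vertical axis) at the loci of 4 gene lists, with 1 point per gene averaged over both alleles and replicates, thick bars at the list medians (2.95, 2.56, 1.12 and 1.34 from left to right) and the quartiles and median of all coding gene loci as a grey band and thin line. Sall4 (0.417) is the lowest of the 10 stem cell marker loci, below most fibroblast and lineage markers.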

How the data were processed

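The deposited file gives counts per 50 kb window on mm10, in 4 columns for the alleles and replicates (0 other sample columns), on chromosomes 1 to 19. The tools named by the submitters' processing notes are Bowtie2, SAMtools, bedtools and MACS2, with neither role nor version. How fragments were assigned to alleles is not given in the sources used here. Gene positions were those of RefSeq for GRCm38.p6 (the mm10 assembly), and all 10 symbols matched. Coordinates are 1-based.

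Windows overlapping a gene or within 100 kb were summed per coding gene. The allelic difference was fitted over all windows, and over all loci, with at least 1 count by edgeR 4.0.16 (quasi-likelihood, TMM, Benjamini-Hochberg adjusted p threshold 0.05). The code was tried on simulated Poisson counts. These vary more between alleles than the values here, so that trial does not tell how the fit performs on them. Each SE is the log2 difference over the root of F, not the spread of the replicates. In this fit edgeR keeps p at or above that of a Poisson test. Loci of neighbouring genes share windows. Alternatives used DESeq2 1.42.0, limma 3.58.1, other scalings, flanks and filters. Both alleles were read in the same library, so replicate numbers pair the columns (deviations correlated at r = 0.291 across windows, 0.435 across member windows and 0.651 across gene loci). The main fit held the allele only and did not use this pairing, while the fit with the replicate block did. All 10 genes are named, with genes in their windows. Of the other pluripotency list, the genes with the highest and lowest share are named, and other genes of the lists were chosen after their values were seen. The members and lists were chosen with earlier results of these data known.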

Additional observations from a re-analysis of the deposited data

How the results depend on the processing

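The number of windows called was 0 with edgeR. It kept at 0 with the replicate block, DESeq2 size factors, the DESeq2 Wald test and an adjusted p threshold of 0.1. A minimum count of 10 also gave 0, but it left only 40 windows to test, 3 of them member windows. The number called was 1 with 1 library size per replicate and 78 with limma on centred square roots, 0 of them at the 10 loci. The number of gene loci called was 0, and 3 with the replicate block, 0 of them among the 10. Leaving out a replicate leaves no test. The 129 share of the member windows averaged 48.7%, and 47.7 to 49.6% with a replicate left out, 48.7% over gene bodies, 49.1% with 50 kb flanks and 49.3% after scaling columns.

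Log2 allelic differences changed sign at 5 loci, none of them called. Dppa3, with the highest value of the 10 (0.24), was at -0.23 over its gene body only. Over gene bodies only the others were 0.15 (Utf1) and -0.39 (Lin28a). With 50 kb flanks they were 0.014 (Tdgf1), -0.30 (Lin28a) and 0.013 (Sall4). Sall4 was at 0.0076 with the replicate block, 0.0046 with DESeq2 size factors and 0.021 in the DESeq2 Wald test. With a replicate left out the range was -0.053 to 0.0044 (Tdgf1), -0.16 to 0.30 (Lin28a) and -0.73 to 0.43 (Sall4). Over the gene body alone the mean count per window rose more than 1.5 times at Dppa5a (9.75, then above Dppa3 at 9.25), Dppa2 (8.25), Fbxo15 (8.12), Dppa4 (7.75) and Utf1 (4.75), and it was 1.75 at Tdgf1; with 50 kb flanks Tdgf1 had 4. Depth limits Sall4, with 10 counts in all, most.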
